A study of Mus musculus with 18 samples.

Results

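The comparison described here sets Trem2 knockout (KO) mice at the 12-week stage against KO mice at the 6-week stage, across all genes measured in the caudal corpus callosum, the rear part of the main white matter tract between the brain hemispheres. It takes 9 of the 18 arrays of the series, chosen by the genotype and stage in their labels, 3 at 6 weeks and 6 at 12 weeks. Every mouse was a C57BL/6 and ate chow holding 0.2% cuprizone (CPZ), a compound that binds copper and leads to the death of oligodendrocytes and the loss of myelin. The other 9 arrays are of mice with normal Trem2 (WT) on the same diet, 4 at 6 weeks and 5 at 12 weeks, and are used for the shared estimate of spread and for values set side by side. The labels can be read in either of 2 ways, since sample descriptions give the stage as the age of the mice while the treatment protocol gives feeding times for mice of a range of ages. No array of mice without CPZ was used here, so 12 weeks is compared with 6 weeks only. The labels do not say how the knockout allele was made. They also do not say that the arrays are of different mice, and where they are not, the p-values here reflect technical spread.

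TREM2 is a receptor on microglia and other myeloid cells that binds lipids and signals through the adaptor TYROBP. Microglia use it to take up myelin debris and to switch on a programme of lipid handling and lysosomal genes. CPZ feeding first removes mature oligodendrocytes, with microglia and astrocytes gathering in the stripped tract, and longer feeding keeps the tract without myelin. The tract lies next to cortex, hippocampus, meninges and the ependyma and choroid plexus of the ventricles, so each dissected sample can hold some RNA of these. The question a stage comparison in the knockout addresses is how this tissue without TREM2 differs between the early and the late stage.

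Values are deposited log2 signals, a gene's value being the median of its probe sets, and 16281 genes were tested with limma. A difference is the mean at 12 weeks minus the mean at 6 weeks on the log2 scale, and a gene passed where its p, adjusted by the Benjamini-Hochberg method over all genes tested, was under 0.05. The median standard error of a difference was 0.25. In 79.0% of genes the whole 95% interval lay within 1 log2 unit either side of no difference. Differences of more than 2-fold were seen in 162 genes, 0.995% of those tested. Trem2, the targeted gene, read 6.05, 5.94 and 5.42 in the KO arrays of 6 weeks and from 4.79 through a median of 5.33 to 5.59 in those of 12 weeks, against group means of 7.29 ± 0.83 (SD, n = 4) and 7.36 ± 0.48 (SD, n = 5) in WT. Every KO group mean of Trem2 was thus under both WT means, and its stage difference in KO of -0.54 did not pass (adjusted p = 0.733). Its 7 probe sets differed by -1.08 to 0.11, and which of them lie in the deleted part is not known here.

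One array stands apart. KO replicate 2 of 6 weeks had the highest or lowest value of the 9 KO arrays in 36.2% of genes, against 17.0% to 24.0% for the other 8, and its median correlation with the other KO arrays was 0.905 against 0.937 to 0.947 for them. It was high in microglial, myelin and immediate early genes and low in neuronal genes, and its Xist signal of 5.00 lay between those of the other male arrays (2.82 to 4.08) and of the female arrays (7.68 to 9.13), beside Y-linked genes at the male level. With 3 arrays at 6 weeks it supplies a large part of that mean, so medians of gene groups are given with and without it. Of the 36 lists with at least 5 members tested, 16 had a median of the opposite sign without it. The KO arrays of 6 weeks were 2 males and 1 female by Xist and Y-linked genes, and those of 12 weeks were 3 males (replicates 1 to 3) and 3 females (replicates 4 to 6).

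Zfp36, which encodes tristetraprolin, a protein that speeds the decay of cytokine mRNAs, was the gene that passed. It is an immediate early gene, one of a class switched on within minutes of a stimulus without new protein synthesis and shut off soon after. Its value was 6.60, 7.12 and 6.79 in the arrays of 6 weeks and ran from 5.07 through a median of 5.33 to 5.58 at 12 weeks. The groups did not overlap, and the highest array of 12 weeks lay about a log2 unit under the lowest of 6 weeks. Zfp36 fell by 1.51 (SE 0.19), a 2.85-fold change with a 95% interval from -1.90 to -1.12 (limma, adjusted p = 0.00173). It was the single gene called among 16281, or 0.00614% in that direction, and 0 genes were called as higher. At an unadjusted p under 0.05, 453 genes (2.78%) were lower and 766 (4.70%) higher.

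The call on Zfp36 was lost when the 9 KO arrays were fitted alone (adjusted p = 0.0545), in males alone (0.187), in females alone (0.843) and without the 2 arrays of lowest weight (0.0744), while its difference stayed between -1.55 and -1.37 in these fits. Without KO replicate 2 of 6 weeks it was -1.37 (adjusted p = 0.0488), near the threshold. The gene rests on 2 probe sets, the brighter of which went from 9.30 to 6.93 on average, a difference of -2.37 with no overlap of the groups, while the dimmer differed by -0.65 with overlap. In WT the Zfp36 means were 5.66 ± 0.31 (SD, n = 4) at 6 weeks and 5.25 ± 0.16 (SD, n = 5) at 12 weeks, a difference of -0.41. The difference between the KO and WT stage differences, -1.10, did not pass (adjusted p = 0.645).

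**Figure D1:**
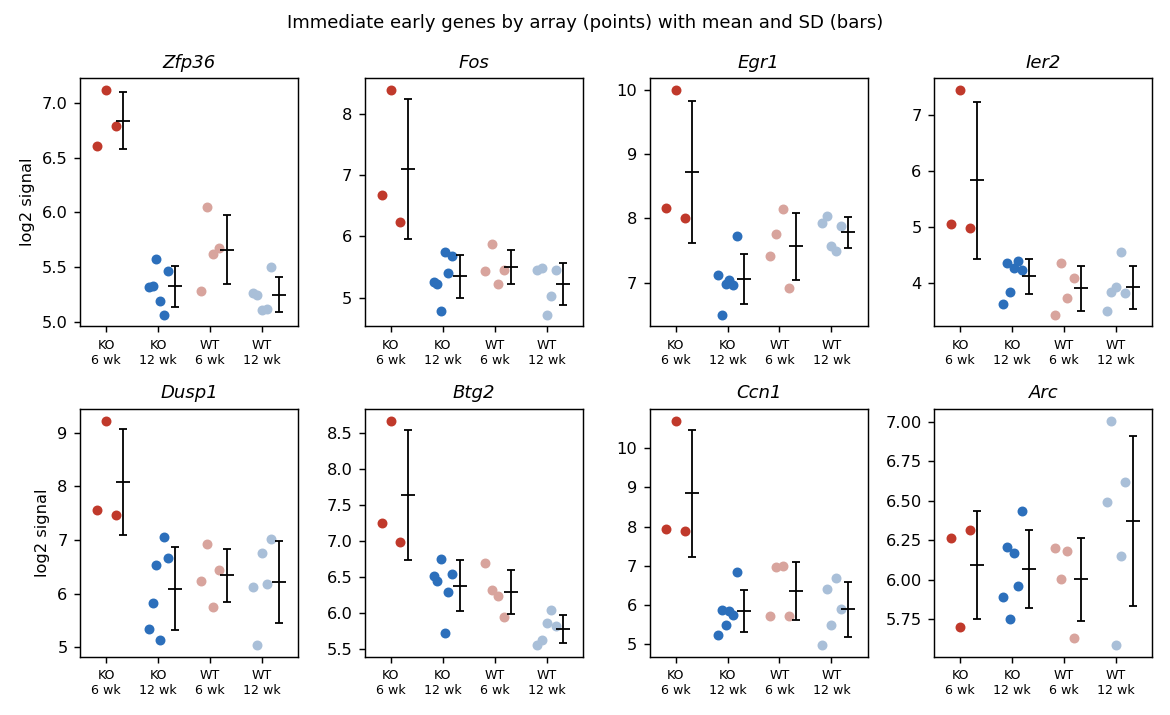
Log2 signal of 7 genes that were lower at 12 weeks in KO, and of Arc for contrast, by array (points) with mean and SD (bars) in KO and WT at 6 and 12 weeks. In the first 7 panels all 6 KO arrays of 12 weeks lie below all 3 of 6 weeks, and for all but Zfp36 one array of 6 weeks, replicate 2, lies far above the rest; Arc overlaps between the stages.

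Zfp36 was followed by other immediate early genes, none of which passed. Promoter stretches of 4 members are shown because these genes lay lower together at 12 weeks and because this class is known for serum response and cAMP response elements near the start site. Each line gives the 200 bases before the transcription start, read 5′ to 3′ on the gene's own strand, from RefSeq on build GRCm38.p6. Capitals mark matches, on either strand, to 4 motifs: the CArG box of serum response factor, the cAMP response element TGACGTCA, the shorter TGACG, which the full element contains, and GCGNGGGCG, bound by EGR proteins. Zfp36 lies on the minus strand (chr7:28379229-28379428), Fos on the plus strand (chr12:85473690-85473889), Btg2 on the minus strand (chr1:134079156-134079355) and Dusp1 on the minus strand (chr17:26508473-26508672).
Zfp36: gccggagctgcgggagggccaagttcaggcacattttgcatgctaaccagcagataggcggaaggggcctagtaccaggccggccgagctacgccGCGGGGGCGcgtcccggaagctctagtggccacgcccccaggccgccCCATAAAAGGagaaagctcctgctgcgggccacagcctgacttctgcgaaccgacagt
Fos: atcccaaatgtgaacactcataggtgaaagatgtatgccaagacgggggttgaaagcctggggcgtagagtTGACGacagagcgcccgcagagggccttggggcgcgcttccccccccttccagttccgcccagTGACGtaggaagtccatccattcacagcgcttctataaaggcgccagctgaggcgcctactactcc
Btg2: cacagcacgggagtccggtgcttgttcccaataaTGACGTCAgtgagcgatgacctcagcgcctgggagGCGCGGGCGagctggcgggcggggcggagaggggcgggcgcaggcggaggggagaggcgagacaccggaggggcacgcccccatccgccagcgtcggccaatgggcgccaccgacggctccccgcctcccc
Dusp1: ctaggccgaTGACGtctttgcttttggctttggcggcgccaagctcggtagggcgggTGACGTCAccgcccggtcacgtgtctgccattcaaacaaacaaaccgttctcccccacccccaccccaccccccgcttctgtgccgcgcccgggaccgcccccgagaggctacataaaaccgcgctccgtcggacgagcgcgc
The Zfp36 stretch holds a CArG box that begins 58 bases before the start and GCGNGGGCG at 105 bases. Fos has TGACG at 129 and 66 bases, Btg2 has TGACGTCA at 166 and GCGNGGGCG at 131 bases, and Dusp1 has TGACGTCA at 143 and TGACG at 191 bases. Only these 200 bases were searched, so elements further from the start, of Fos or any other gene, would be missed. Of the 20 immediate early genes 16 had an entry in the promoter table. TGACG was found in 10 of the 16 (62.5%) against 15.7% of 32851 promoters of the same length, GCGNGGGCG in 6 (37.5%) against 4.28%, TGACGTCA in 2 (12.5%) against 1.47% and the CArG box in 1 (6.25%) against 1.18%. A match is a description of the letters, and genes with TGACG included Npas4 and Nr4a2, whose values did not separate the stages.

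Among the transcription factors of the class, Fos, a subunit of AP-1, read 6.68, 8.40 and 6.23 at 6 weeks and from 4.78 through 5.33 to 5.74 at 12 weeks. Egr1, a zinc finger factor induced by growth factors and neuronal activity, read 8.16, 10.01 and 8.01 at 6 weeks and from 6.50 through 7.005 to 7.73 at 12 weeks. Neither gene's groups overlapped, and in both replicate 2 of 6 weeks was the highest array by more than a log2 unit. The differences were -1.75 (adjusted p = 0.171) for Fos and -1.67 (adjusted p = 0.204) for Egr1. Without that array they were -1.11 and -1.03.

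Regulators of signalling and growth showed the same order. Ier2, a nuclear protein, read 5.06, 7.45 and 4.99 at 6 weeks and from 3.63 through 4.25 to 4.40 at 12 weeks. Dusp1, the phosphatase that switches off MAP kinases, read 7.56, 9.23 and 7.47 at 6 weeks and from 5.13 through 6.18 to 7.05 at 12 weeks. Btg2, an antiproliferative gene, read 7.25, 8.67 and 6.99 at 6 weeks and from 5.72 through 6.48 to 6.75 at 12 weeks. All 3 genes were without overlap, with differences of -1.71, -1.998 and -1.26 (each with an adjusted p = 0.263) that became -0.90, -1.43 and -0.74 without replicate 2 of 6 weeks.

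Ccn1 (Cyr61), a secreted matrix protein that growth factors induce in the same rapid way, had the largest of the named differences. It read 7.94, 10.70 and 7.89 at 6 weeks and from 5.24 through 5.80 to 6.83 at 12 weeks, and the groups did not overlap. Its difference was -3.003 with a 95% interval from -4.10 to -1.90 (limma, adjusted p = 0.122), and -2.07 without replicate 2 of 6 weeks. All 5 of its probe sets were lower at 12 weeks.

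Over the 20 tested members of the immediate early list, 15 were lower and 5 higher, with a median of -0.68 against 0.02 over all genes tested, of which 47.8% were lower by any amount. One member passed, and 10 were lower at an unadjusted p under 0.05, where 2.78% of all genes were. In 6 members every array of 12 weeks lay below every array of 6 weeks, where 1.62% of all genes did so. Nr4a1, an orphan nuclear receptor, and Jun, the partner of Fos in AP-1, differed by -1.26 and -0.84 with overlap of the groups, and Fosb and Junb by -0.87 and -0.53. Without replicate 2 of 6 weeks these 4 differed by -0.56, -0.53, -0.52 and -0.18, and the brightest probe sets of Fos and Fosb differed by -2.77 and -0.33. Arc and Npas4, which neurons switch on with synaptic activity, differed by -0.02 (95% interval -0.56 to 0.51) and 0.16 (-0.41 to 0.73), and Nr4a2, Egr3 and Egr4 lay in the range between them. With that array left out Arc and Nr4a2 differed by -0.22 and -0.45.

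The list was lower in both sexes but by unequal amounts. Its median was -0.90 in males alone and -0.32 in females alone, where 6 weeks is represented by 1 array. Without replicate 2 of 6 weeks the median was -0.41, with 17 of 20 members lower and 6 of them at an unadjusted p under 0.05, where 2.53% of all genes were. The list score, the average over members after the mean of each gene across the 18 arrays was taken off, was 0.45, 1.07 and 0.16 at 6 weeks and ran from -0.31 through -0.22 to 0.07 at 12 weeks. In WT the median of the same members was 0.08, and the position of the WT means varied by gene. Fos had means of 5.50 ± 0.27 (SD, n = 4) and 5.23 ± 0.34 (SD, n = 5) in WT. Dusp1 had WT means of 6.34 ± 0.49 and 6.22 ± 0.77, near its KO level of 12 weeks as for Fos, while those of Egr1, 7.56 ± 0.52 and 7.78 ± 0.24, lay between the KO means of 12 weeks (7.05) and 6 weeks (8.73). No member passed the test of the difference between KO and WT. With all arrays used, 7 of the 20 had an unadjusted p under 0.05 in that limma test, where 5.19% of all genes did. The median of the difference was -0.52.

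**Figure D2:**
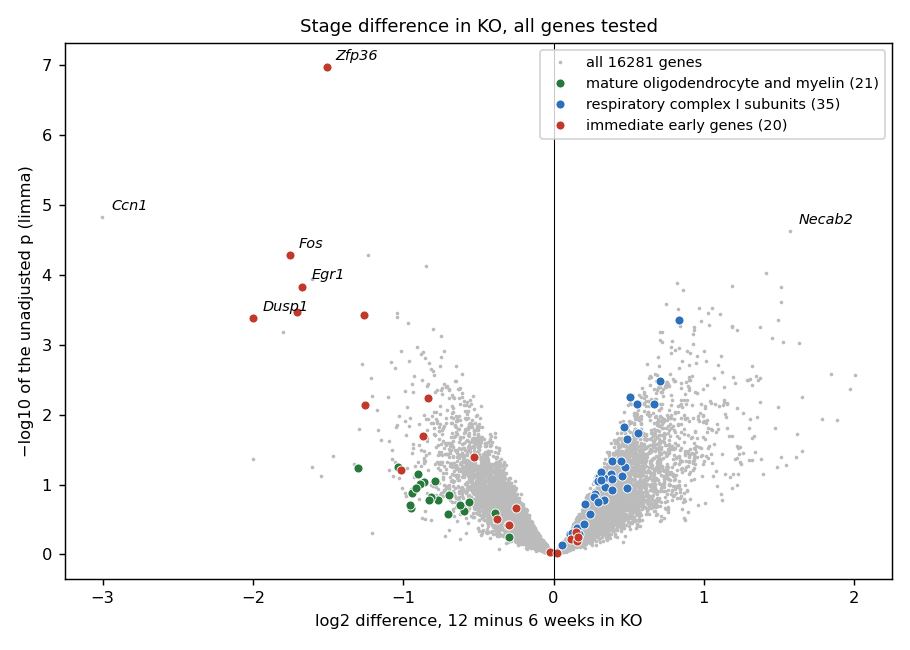
Stage difference in KO (x axis, log2, 12 minus 6 weeks) against the −log10 of the unadjusted limma p (y axis) for all 16281 genes in grey. Marked are 20 immediate early genes in red, 35 genes named as respiratory complex I subunits in blue and 21 mature oligodendrocyte and myelin genes in green. Zfp36 is the highest point; the complex I subunits all lie to the right of 0 and the myelin genes all to the left, with no point of either group past the adjusted threshold.

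A pair of further genes completes those of smallest p among lower values, and neither passed. Cyp2d40, a cytochrome P450, read 5.83, 5.50 and 5.67 at 6 weeks and from 3.69 through 4.51 to 4.91 at 12 weeks, a difference of -1.23 (adjusted p = 0.171), or -0.59 by its brightest probe set. It belongs to a family of close copies, and whether its probes also bind another member was not tested. Tgfa, a ligand of the EGF receptor, read 6.76, 6.67 and 6.53 at 6 weeks and from 5.62 through 5.82 to 5.97 at 12 weeks, a difference of -0.85 (adjusted p = 0.201). In both the groups were apart, and without replicate 2 of 6 weeks the values were -1.31 and -0.84, so these 2 genes did not rest on it. The 7 probe sets of Tgfa went both ways. Of these 6 were lower at 12 weeks, 3 of them without overlap. The other was higher by 0.52, with every array of 12 weeks above every array of 6 weeks. The brightest differed by -0.62, and the brightest over the KO arrays by -0.23. The WT difference of Tgfa was of the same size, and its interaction estimate was -0.03.

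Slc1a2, the main glutamate transporter of astrocytes, read 11.35, 11.52 and 11.35 at 6 weeks and from 10.35 through 10.60 to 10.88 at 12 weeks. The groups did not overlap, and the 3 arrays of 6 weeks lay close together. Its difference was -0.80 with a 95% interval from -1.21 to -0.39 (limma, adjusted p = 0.263), -0.75 without replicate 2 of 6 weeks, -0.74 in males and -0.84 in females. All 17 of its probe sets were lower at 12 weeks, by 0.18 to 1.96, and the brightest by 0.25. The other 13 astrocyte genes tested had differences between -0.27 and 0.19, among them Glul, which makes glutamine from glutamate, at -0.25, and the bicarbonate cotransporter Slc4a4 at -0.27 (0.00177 without that array). The list of 14 had a median of -0.15 that turned to 0.016, with 8 of 14 higher, without replicate 2 of 6 weeks. None passed, and the list score ran from 0.05 to 0.63 at 6 weeks and from -0.05 to 0.34 at 12 weeks. In bulk tissue fewer cells of a type and less RNA per cell cannot be told apart.

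No gene was called as higher, and the 6 named ones of smallest p have varied functions. Necab2, a calcium-binding protein of neurons, read 5.52, 5.57 and 6.39 at 6 weeks and from 6.96 through 7.42 to 7.80 at 12 weeks, a difference of 1.57 (adjusted p = 0.127). All 13 of its probe sets were higher at 12 weeks, the brightest by 0.54. Scnn1a, the alpha subunit of the epithelial sodium channel, read 3.87, 4.03 and 3.66 at 6 weeks and from 4.65 through 5.23 to 6.21 at 12 weeks, a difference of 1.42 (adjusted p = 0.204). Its brightest probe set too differed by 0.54. The groups were apart in both genes, and without replicate 2 of 6 weeks the differences were 1.44 and 1.504.

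Tomm5, a small subunit of the import pore of the mitochondrial outer membrane, read 5.20, 5.48 and 4.22 at 6 weeks and from 6.10 through 6.51 to 6.96 at 12 weeks, a difference of 1.51 (adjusted p = 0.263), or 0.91 by its brighter probe set. Rpl14, a protein of the large ribosomal subunit, differed by 0.82 (adjusted p = 0.204), though its brighter probe set differed by 0.20 and the other by 1.45. Pdcd6, a calcium sensor of membrane traffic, differed by 0.86 (adjusted p = 0.204), or 0.56 by its brightest probe set. Cenpk, a kinetochore protein, differed by 1.51 (adjusted p = 0.204), but its level at 6 weeks was 2.29 to 2.81, under the limit for dim genes of 3.41. Of its 13 probe sets 12 were higher at 12 weeks, and the one of highest mean over all 18 arrays, the meaning of brightest throughout, differed by -0.22, while the brightest over the KO arrays differed by 2.37. In these 4 genes too every array of 12 weeks lay above every array of 6 weeks, as in 2.28% of all genes. For Rpl14 this held for the median of its 2 probe sets but for neither probe set alone.

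**Figure D3:**
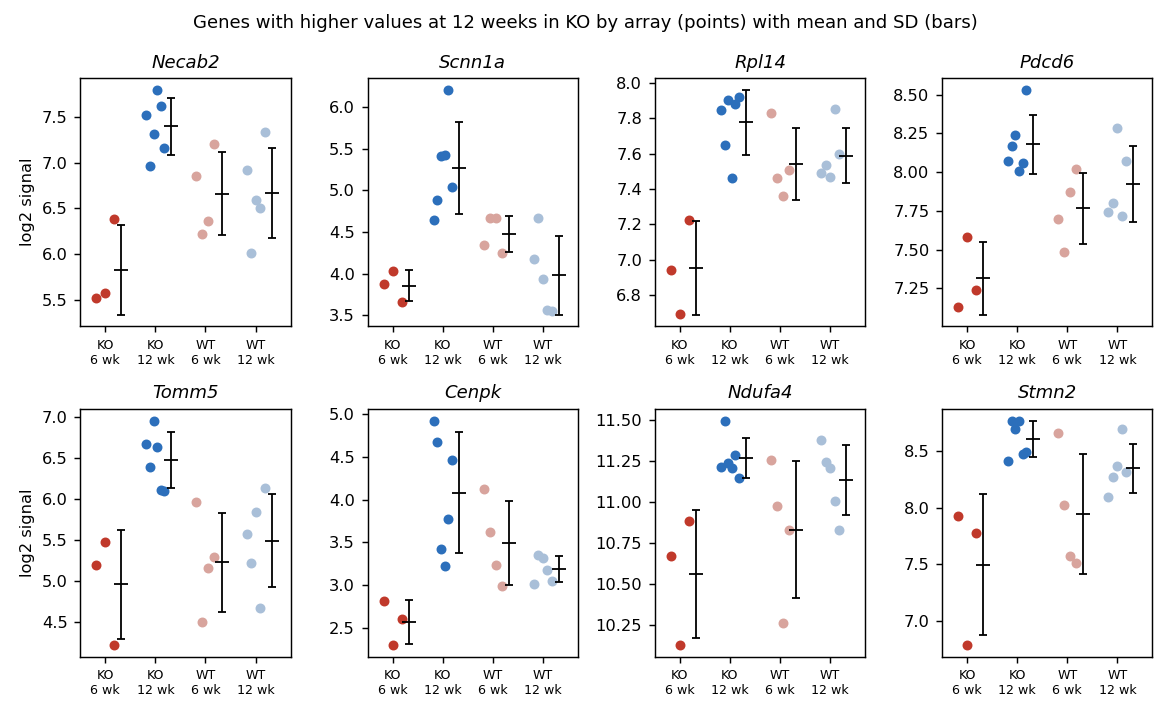
Log2 signal of 8 genes with higher values at 12 weeks in KO, by array (points) with mean and SD (bars) in KO and WT at 6 and 12 weeks. In every panel all 6 KO arrays of 12 weeks lie above all 3 of 6 weeks; none of the 8 genes passed the test across all genes.

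Genes of the mitochondrial respiratory chain, which passes electrons from NADH and succinate to oxygen and drives ATP synthase, were higher at 12 weeks in 16 of the 17 tested, with a median of 0.37, or 15 of 17 with a median of 0.24 without replicate 2 of 6 weeks. None passed, and 5 were higher at an unadjusted p under 0.05, where 4.70% of all genes were. Ndufa4, a small subunit of the chain, read 10.67, 10.12 and 10.88 at 6 weeks and from 11.15 through 11.23 to 11.50 at 12 weeks, a difference of 0.71 (adjusted p = 0.456). Atp5o, which joins the stalk of ATP synthase to its head, read 9.05, 9.55 and 9.52 at 6 weeks and from 9.67 through 9.98 to 10.34 at 12 weeks, a difference of 0.60 (adjusted p = 0.502). Groups of both genes were apart, and their brightest probe sets differed by 0.26 and 0.36. Uqcrc1, a core protein of complex III, and Atp5a1, the alpha subunit of ATP synthase, differed by 0.56 and 0.37 with overlap, or by 0.23 and -0.03 by their brightest probe sets. Sdha, of complex II, was the exception at -0.15.

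The wider family of genes named as complex I subunits was gathered by symbol after the data were seen. It takes in Ndufa4, and membership in complex I was not checked gene by gene. This family was higher in 35 of 35 genes with a median of 0.34, where 52.2% of all genes were higher. In WT 28 of the 35 were higher with a median of 0.15. Mitochondrial ribosomal proteins were higher in 67 of 74 with a median of 0.31 (WT 47 of 74, median 0.08), and cytosolic ribosomal proteins in 42 of 58 with a median of 0.09, or 47 of 58 with a median of 0.22 without replicate 2 of 6 weeks. Replicate 2 of 6 weeks did not carry these counts, since without it 34 of 35 complex I subunits and 68 of 74 mitochondrial ribosomal proteins were higher, with medians of 0.33 and 0.38. No member of the 3 families passed. The score of the respiratory chain list was -0.11, -0.28 and -0.16 at 6 weeks and ran from 0.01 through 0.14 to 0.23 at 12 weeks, without overlap. Scores of the immediate early list and of the interneuron and neuropeptide list did not overlap either. By the brightest probe set of each gene the medians were smaller, 0.15 for the list and 0.18 for complex I. The neuronal score, given here because neurons are rich in mitochondria, was -0.10, -1.29 and 0.21 at 6 weeks and -0.16 to 0.28 at 12 weeks. Its part in the result was not tested.

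Mature oligodendrocyte and myelin genes had lower means at 12 weeks in 21 of 21 genes, and the difference was within the spread between arrays. The median was -0.82, none passed, and none reached an unadjusted p under 0.05. Mag, an adhesion protein of the innermost myelin wrap, read 9.49, 10.08 and 8.23 at 6 weeks and from 6.74 through 8.13 to 9.56 at 12 weeks, a difference of -1.30 with a 95% interval from -2.65 to 0.05 (limma, adjusted p = 0.665). Ugt8a, which makes galactosylceramide, the main myelin glycolipid, differed by -1.03 (-0.63 by its brightest probe set), and Mog, of the outer myelin surface, by -0.94. Arrays of one stage thus differed in Mag by more than the stages did. The list score of 12 weeks ran from -1.01 to 0.70, with replicate 5 highest, and replicate 3 of 6 weeks at -0.51 lay within it. Without replicate 2 of 6 weeks the median was -0.36 and Mog differed by -0.44. It was -1.21 in males alone and turned to 0.16 in females alone, where Mog differed by 0.20. In WT the median of these genes was -1.599.

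Precursor and early lineage genes of oligodendrocytes were lower in 15 of 16, with a median of -0.27 that became -0.12 without replicate 2 of 6 weeks. Gpr17, a receptor of committed precursors, read 6.50, 6.37 and 6.69 at 6 weeks and from 5.50 through 5.84 to 6.12 at 12 weeks, with no overlap and a difference of -0.68 (limma, adjusted p = 0.600). The lineage factors Olig2 and Olig1 differed by -0.49 and -0.46 with overlap, or by -0.44 and -0.23 without replicate 2 of 6 weeks. Pdgfra, the growth factor receptor of precursors, differed by -0.20 and by -0.057 without it. None of the 16 passed.

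No microglial gene passed between the stages. Of the 19 homeostatic genes tested, which mark resting microglia, 16 were lower with a median of -0.11, and without replicate 2 of 6 weeks 16 were higher with a median of 0.27, where 53.3% of all genes were higher. P2ry12, the ADP receptor of resting microglia, read 7.85, 9.33 and 8.24 at 6 weeks and from 7.31 through 8.35 to 8.82 at 12 weeks, and its difference of -0.23 turned to 0.20 without that array. Siglech, a lectin of microglia, turned in the same way from -0.11 to 0.44. Csf1r, the receptor on which microglial survival depends, differed by -0.53 (95% interval -1.24 to 0.18) and by -0.12 without it. The direction of this group therefore rests on 1 array, whose score of 1.58 compares with 0.17 and 0.47 in the other KO arrays of 6 weeks and 0.09 to 0.88 at 12 weeks.

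The 28 disease-associated microglial genes, which microglia switch on around damage and many of which are known to need TREM2, had a median of -0.06 with 12 higher and 16 lower. Without replicate 2 of 6 weeks the median was 0.33, with 20 higher. Clec7a, a receptor for fungal glucans and a marker of that state, differed by 0.54 (95% interval -0.51 to 1.59), and Lpl, lipoprotein lipase, by 0.44 (-0.50 to 1.38), though its brightest probe set differed by -0.47. Without that array Clec7a differed by 0.85. Csf1 and Ccl4 differed by -0.42 and -0.51, or -0.11 and -0.41 without it, and the brightest probe set of Csf1 by -0.26. Pan-myeloid genes behaved alike, with a median of -0.09 that became 0.33. Tyrobp, the adaptor of TREM2, differed by -0.21 (95% interval -0.67 to 0.25) and by -0.058 without that array, and 12 of the 13 genes of TREM2 signalling were lower, but 6 of 13 without that array. No gene of these 4 lists passed.

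**Figure D4:**
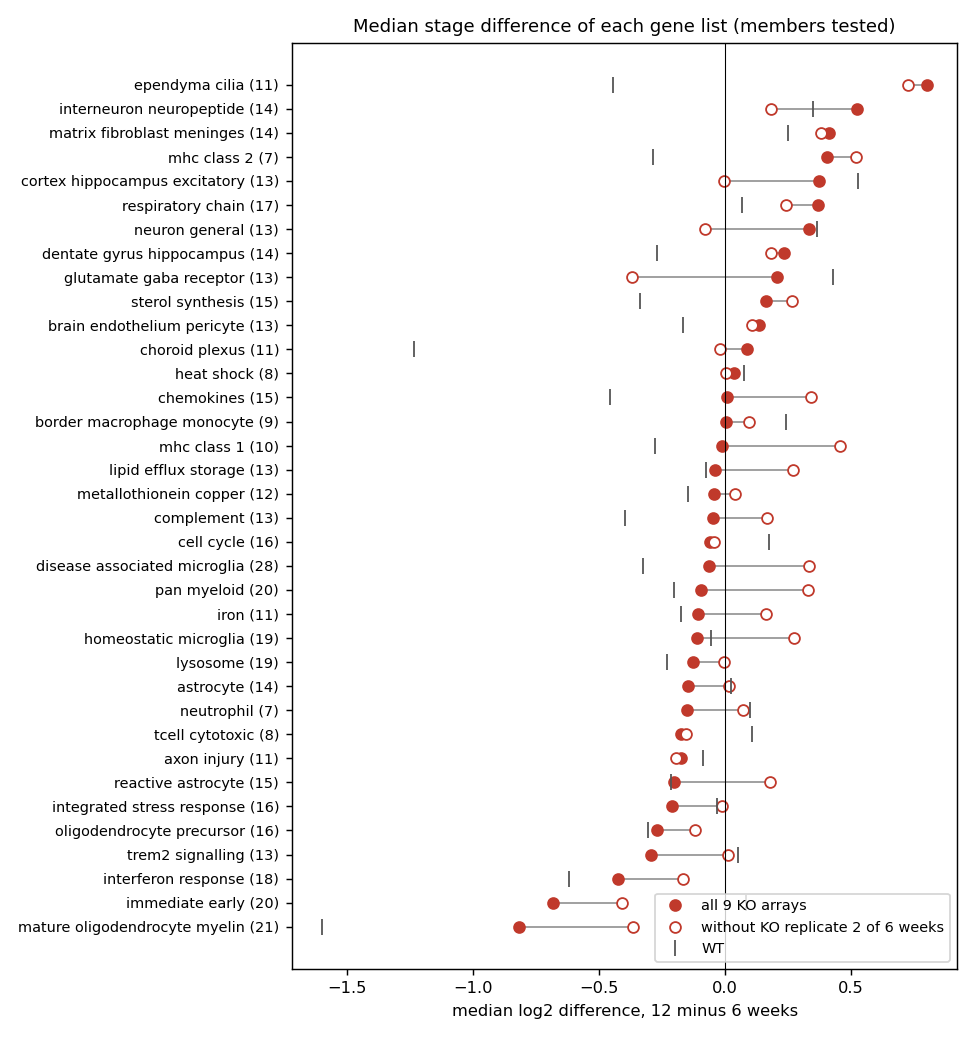
Median stage difference (x axis, log2, 12 minus 6 weeks) of each gene list with at least 5 members tested, with all 9 KO arrays (filled red), without KO replicate 2 of 6 weeks (open red) and in WT (grey tick); numbers of members tested are in brackets. Of the 36 lists, 16 cross 0 when that array is left out, among them the microglial, TREM2 signalling, astrocyte, reactive astrocyte, complement, general neuron and glutamate and GABA receptor lists, while immediate early, myelin and interferon genes stay below 0 and ependymal, matrix and respiratory chain genes above it.

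Interferon-induced genes were lower in 18 of 18, with a median of -0.42, and none passed. Cxcl10, a chemokine for T cells, read 6.17, 8.23 and 7.17 at 6 weeks and from 5.60 through 6.31 to 6.74 at 12 weeks, a difference of -0.94 (adjusted p = 0.629). Oas1a, which makes the activator of RNase L, differed by -0.90, Irf7, the factor that amplifies interferon output, by -0.81 and Zbp1, a nucleic acid sensor, by -0.65 (-0.21 by its brightest probe set). The groups overlapped in all 18 genes. Without replicate 2 of 6 weeks Cxcl10 differed by -0.42, Oas1a by -0.52 and Irf7 by -0.42, the median was -0.17 with 12 of 18 lower, and the score of 6 weeks was 0.07, 1.45 and 0.71 against -0.20 to 0.59 at 12 weeks. In WT the median was -0.62.

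Chemokines went both ways. Ccl5, a chemokine of T cells and monocytes, read 7.70, 7.80 and 8.002 at 6 weeks and from 6.48 through 7.11 to 7.59 at 12 weeks, with no overlap and a difference of -0.74 (adjusted p = 0.478), or -0.76 without replicate 2 of 6 weeks. Ccl2, which draws monocytes, differed by -1.04, by -0.35 without that array and by -0.47 by its brightest probe set. Cxcl5, which draws neutrophils, differed by 0.95 (adjusted p = 0.627) and by 1.32 without it. Of the 15 tested, 8 were higher and 7 lower, with a median of 0.01 that became 0.34 without that array.

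Genes of MHC class II, which present antigen to CD4 T cells, had a median of 0.41 with 5 of 7 higher, or 0.52 with 6 of 7 without replicate 2 of 6 weeks. Cd74, the invariant chain, read 3.94, 5.88 and 6.25 at 6 weeks and from 5.41 through 6.60 to 8.35 at 12 weeks, a difference of 1.38 (adjusted p = 0.665) beside a wide range within the later stage. Ciita, the master activator of the class, differed by -0.40. None of the 7 passed.

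Genes of the integrated stress response, which cells switch on when protein folding or amino acid supply fails, had a median of -0.21 with 13 of 16 lower. Chac1, which breaks down glutathione, read 6.18, 6.89 and 6.00 at 6 weeks and from 5.09 through 5.55 to 5.67 at 12 weeks, with no overlap and a difference of -0.87 (limma, adjusted p = 0.346). Sesn2, a leucine sensor, and Mthfd2, of mitochondrial folate metabolism, differed by -0.84 and -0.71 with overlap. Without replicate 2 of 6 weeks Chac1 differed by -0.60, Sesn2 by -0.54, Mthfd2 by -0.23 and the list by a median of -0.01.

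Neuronal genes were higher in 11 of 13 with a median of 0.33, and in 5 of 13 with a median of -0.08 without replicate 2 of 6 weeks, in which they were low. Stmn2, a tubulin-binding protein of growing axons, read 7.93, 6.78 and 7.78 at 6 weeks and from 8.41 through 8.59 to 8.77 at 12 weeks. The groups did not overlap, and its difference of 1.11 (limma, adjusted p = 0.263) became 0.75 without that array. Uchl1, a neuronal ubiquitin hydrolase, differed by 0.90 without overlap and by 0.46 without that array. The synaptic vesicle protein Syp differed by 0.95 and by 0.13 without that array, and Snap25, which fuses vesicles, by 0.57 and -0.10. The brightest probe set of Syp differed by 0.15.

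Genes of interneurons and neuropeptides had a median of 0.52 with 12 of 14 higher, or 0.18 with 11 higher without that array. Gad2, which makes GABA, read 7.20, 6.23 and 7.01 at 6 weeks and from 7.35 through 7.57 to 7.73 at 12 weeks, without overlap, a difference of 0.73 (limma, adjusted p = 0.456) and 0.43 without replicate 2 of 6 weeks. Tac1, the precursor of substance P, differed by 1.37 and Gad1 by 0.81, with overlap, or by 0.81 and 0.35 without that array. The amount of neighbouring grey matter in each sample was not measured apart from these genes, and its part in the result was not tested.

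Genes of the structures around the tract varied widely within the later stage. Motile cilia genes of the ependyma were higher in 11 of 11 with a median of 0.80, or 0.73 without replicate 2 of 6 weeks, and none passed. Ak7, an adenylate kinase of cilia, differed by 1.52 (95% interval 0.07 to 2.96) and Rsph4a, of the radial spoke, by 1.24. The score of the list was 0.04, -0.32 and 0.24 in the male arrays of 12 weeks and 1.04, 1.55 and 0.48 in the female ones, against -0.58 to 0.00 at 6 weeks. Choroid plexus genes had a median of 0.09 (-0.02 without that array), with 2 of those female arrays at scores of 1.25 and 1.17. In WT the ependymal median was -0.44.

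Matrix genes of fibroblasts and meninges were higher in 11 of 14 with a median of 0.41 (0.38 without replicate 2 of 6 weeks). None passed, and 6 were higher at an unadjusted p under 0.05, or 2 without that array, where 4.46% of all genes were. Fmod, a small proteoglycan that binds collagen, read 3.698, 3.33 and 5.82 at 6 weeks and from 5.07 through 5.89 to 7.90 at 12 weeks, a difference of 1.84 (adjusted p = 0.456), or 0.73 by its brightest probe set. Dcn and Lum, of the same proteoglycan family, differed by 1.78 and 1.62, with replicate 6 at the top of the list score (1.42). The fibrillar collagens Col1a1, Col1a2 and Col3a1 differed by 0.24, -0.09 and 0.09, the latter pair by -0.36 and -0.01 without that array.

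**Figure D5:**
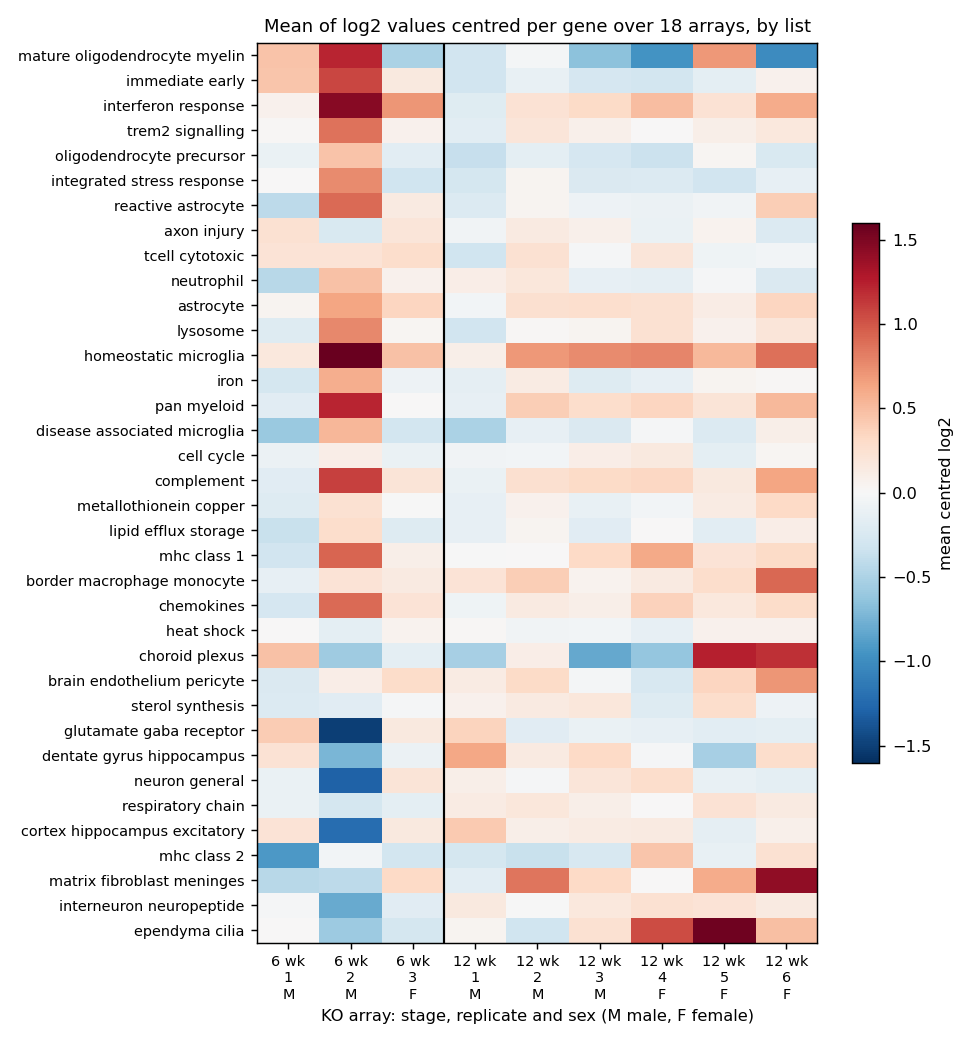
List scores (colour, mean over members of centred log2 values) of gene lists (rows) in the 9 KO arrays (columns, with stage, replicate and sex). Replicate 2 of 6 weeks is red in homeostatic microglia (1.58) and blue in neurons (-1.29), and the ependymal row is red in the 3 female arrays of 12 weeks, up to 1.55, and the choroid plexus row in replicates 5 and 6 of them but not in replicate 4 (-0.61).

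The stage difference in KO was last set against that in WT, in the same model. The test of the difference between them called 0 of 16281 genes in limma, with 845 genes (5.19%) at an unadjusted p under 0.05 and a lowest adjusted p of 0.412. In WT 3 genes (0.0184%) passed for stage, Prox1, Rtp4 and Tbc1d8b, none of them Zfp36. Rtp4, an interferon-induced chaperone of receptors, differed by -1.71 in WT and -0.55 in KO (-0.24 without replicate 2 of 6 weeks). The interaction genes of smallest p on the positive side were Rwdd3, which promotes sumoylation, at 2.30, Rerg, a Ras-like growth inhibitor, at 1.96, Tbc1d8b, of a family that acts on Rab proteins, at 1.94, Scnn1a at 1.92 and the zinc finger gene Zfp882 at 1.33 (adjusted p from 0.412 to 0.505). On the negative side were Egr1 at -1.89, Cyp2d40 at -1.38, Tex48 at -1.26, Trnau1ap, a protein of selenocysteine incorporation, at -1.12 and Zfp36 at -1.10 (adjusted p from 0.645 to 0.729). Some group means behind these estimates lay under the limit for dim genes of 3.41. They were those of Rwdd3 in KO at 6 weeks (3.34), Tbc1d8b in WT at 12 weeks (3.40) and Tex48 in KO at 12 weeks (3.22). That of Rerg in WT at 12 weeks (3.52) was near it. The brightest probe sets of Tex48 and Trnau1ap gave 0.20 and 0.64, in the opposite direction. Those of Rwdd3, Rerg, Tbc1d8b, Scnn1a, Zfp882 and Cyp2d40 gave the smaller estimates 1.43, 1.32, 0.42, 0.86, 0.87 and -0.69. Those of Zfp36 and Egr1 gave the larger -1.94 and -2.18. The interaction of Egr1 was -1.25 when replicate 2 of 6 weeks was left out. Precision was lower here than for stage in KO, with a standard error of 0.73 for Ccn1 against 0.53.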

How the data were processed

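Per the labels, total RNA was purified on columns, amplified for small inputs and labelled with biotin, 1 array a sample. The authors deposited log2 values of 241576 probe sets (0.732 to 13.674). Background correction, array normalization and probe summary: not given in the sources used here. No normalization was added, since the medians of the arrays lay between 5.26 and 5.41.

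Of the probe sets 212097 had 1 gene symbol in the platform annotation and were used, 4475 had several and 25004 none; 2742 symbols were updated through a RefSeq table (GRCm38.p6), and 20299 of 20352 genes were found in it. A gene's value is the median of its probe sets. The dimmest 20% (mean log2 under 3.41) were left out, which left 16281 genes. One limma fit (3.58.1, R 4.3.3) on 18 arrays with 4 group means (14 residual and 5.6 prior degrees of freedom) gave the stage difference in KO and in WT and their interaction, two-sided. The steps were tested on simulated data with independent normal noise and no array set apart. That test cannot show how they fare where 1 array stands apart, as here. Promoters and plots used Python 3.11.15 and matplotlib 3.10.9. The number of arrays limits the precision.

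The comparison, the 37 gene lists (531 genes) and the rules were chosen with earlier results of these data known. Named genes are Trem2, Tyrobp, genes passing for stage or the 6 of smallest p each way, the 5 of smallest p each way for the interaction, and up to 4 of smallest p of each described list, passing over predicted and clone names; other genes are given as list members. Ribosomal and complex I families were added after the data were seen. Same-numbered KO arrays of both stages had correlations of 0.199, 0.0903 and 0.0432 of their deviations. Arrays of unlike number were not compared, so these values cannot decide whether the numbers mark pairs. The numbers were not used as pairs. Alternatives covered the filter, normalization, probe sets, spread estimate, weights, samples, sex, thresholds and each array left out.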

Additional observations from a re-analysis of the deposited data

Results flagged for a closer look

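In the 6 KO arrays of 12 weeks, 125 values (genes and list scores) were examined for a single array far from the others, by the gap to the nearest array over the group's range. Chance flags about 1 in 20 such groups, and 6 were found here. Chac1 was low in replicate 5 (5.09, next 5.46), Glul low in replicate 1 (10.86, next 11.07) and Olig2 low in replicate 1 (5.48, next 6.16). Jun was high in replicate 3 (8.63, next 8.20) and Npas4 low in the same array (3.13, next 4.02). The score of glutamate and GABA receptor genes was high in replicate 1 (0.36, next -0.10).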

How the results depend on the processing

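With 3 arrays at 6 weeks, 1 of which stands apart, the count of genes changed between stages in KO was small and moved with the setting. It was 1 in the fit reported and under the other filters, normalizations, spread estimate, array weights, sex as a covariate and thresholds, 3 by the mean of probe sets (Fos, Necab2 and Zfp36), 3 by the brightest probe set (Ccn1, Fos and Zfp36), and 0 in the 9 KO arrays alone, in males alone and without the 2 arrays of lowest weight (the last chosen after seeing the data), where 1333, 1402 and 1277 genes had an unadjusted p under 0.05; females alone gave 1 gene, Alb. Leaving out each array in turn gave 1 to 5 genes, Zfp36 among them each time, with 5 without KO replicate 3 of 6 weeks. With the replicate number as a block, 2 genes were called, Ccn1 and Zfp36 (limma, adjusted p = 0.0282 for Zfp36). The check of the numbers could not decide whether they mark such a pairing. The count in WT, 3, became 5 by the mean of probe sets, 1 by the brightest, 0 with the replicate block, 7 with sex as a covariate, 0 in males, 9 at an adjusted p under 0.1 and 1 to 6 with each array left out. The interaction count was 0 in every fit run. Fits that leave 1 array in a group, as in females alone, assume that it varies like the other groups. The cause of these moves was not tested.

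Of 89 genes followed for stage in KO, most kept their direction. By the brightest probe set, taken over all 18 arrays, the sign turned for Cenpk (-0.22; 2.37 by the brightest over the KO arrays), Trnau1ap (0.36; interaction 0.64), Tex48 (interaction 0.20), Upk1b (-0.21), Bin2 (0.59), Atp5a1 (-0.029), Slc6a13 (-0.047), Lpl (-0.47) and Arc (0.12), and by the mean of probe sets for Trnau1ap (0.15) and Arc (0.027). In females alone it turned for Upk1b (-0.029), Gjb1 (0.20), Olig1 (0.091), Slc6a13 (-0.00797), Syp (-0.046), Snap25 (-0.46), P2ry12 (0.25), Siglech (0.26), Nr4a1 (0.26) and Mog (0.20), in males alone and with the replicate block for Npas4 (-0.11 and -0.011). With array weights it turned for P2ry12 (0.00315) and Siglech (0.19), and without the 2 arrays of lowest weight for Bin2 (0.16), Slc4a4 (0.00177), Snap25 (-0.10), P2ry12 (0.20) and Siglech (0.44). With each array left out in turn the difference ran from -0.58 to 0.16 for Bin2, -0.48 to 0.00177 for Slc4a4, -0.10 to 1.05 for Snap25, -0.54 to 0.20 for P2ry12, -0.53 to 0.44 for Siglech and -0.22 to 0.087 for Arc.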
